A study of Mus musculus with 6 samples.

Results

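Heterotrimeric G proteins pass signals from cell-surface receptors into the cell, and the 9 genes described here encode 5 of their alpha subunits and 4 of the proteins that switch alpha subunits off. The members were taken by gene symbol from the deposited expression table: the alpha subunit genes Gnaq, Gna11, Gnas, Gnai2 and Gnao1, and the RGS (regulator of G protein signalling) genes Rgs2, Rgs3, Rgs4 and Rgs5. All 9 were found, among 24602 genes in all. Poly(A)-selected RNA came from the left ventricle of wild-type mice, from 3 libraries made 5 weeks after transverse aortic coarctation (TAC), an operation that narrows the aorta and makes the left ventricle pump against a raised pressure, and from 3 libraries made 5 weeks after a sham operation. Both groups carry the same wild-type genotype, and the labels used here do not say that the libraries came from different mice. The p-values therefore measure no more than the spread among these libraries, and that spread may be technical. The question was which of these transcripts differ in level between ventricles under pressure load and ventricles after sham surgery.

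An activated receptor makes the alpha subunit exchange GDP for GTP, after which the alpha subunit and the beta-gamma pair each act on effectors. Alpha subunits of the Gq/11 class turn on phospholipase C-beta, Gs turns on adenylyl cyclase and so raises cAMP, and the Gi/o class lowers cAMP and frees beta-gamma pairs that open potassium channels. RGS proteins speed up GTP hydrolysis on alpha subunits of the Gq/11 and Gi/o classes and thereby end the signal. In the heart, receptors for angiotensin, endothelin and alpha-1 adrenergic agonists act through Gq/11, a route long studied in hypertrophy, while beta-adrenergic receptors raise heart rate and force through Gs.

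The end of the coding sequence shows how close the 5 alpha subunits are to each other, and is given because the C terminus of an alpha subunit is a main point of contact with the receptor. The last 11 codons before the stop codon, read from the GENCODE M21 transcripts (GRCm38), are printed with capitals for the bases that differ from Gnaq at the same place in an alignment from the last codon backwards.
Gnaq: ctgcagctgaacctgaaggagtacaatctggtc
Gna11: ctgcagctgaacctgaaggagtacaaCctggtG
Gnas: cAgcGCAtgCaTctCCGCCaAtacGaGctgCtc
Gnai2: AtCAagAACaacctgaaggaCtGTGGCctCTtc
Gnao1: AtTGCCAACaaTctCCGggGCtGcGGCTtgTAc
Gna11 differed from Gnaq at 2 of 33 bases, Gnai2 at 14, Gnas at 15 and Gnao1 at 21. Over the whole coding sequence of 1080 bases, Gnaq and Gna11 were identical at 80.5% of positions, and the longest run without a difference was 38 bases. Identity was 70.8% between Gnai2 and Gnao1, and 64.7% between Rgs4 and Rgs5.

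Rgs5 (chr1:169655501-169695813, plus strand) and Rgs4 (chr1:169741477-169747642, minus strand) are neighbours on mouse chromosome 1, with 45663 bases and no other annotated gene of GENCODE M21 between them. The 250 bases before each start site are shown because 1 of these neighbours, Rgs5, was called between the groups and Rgs4 was not. Both come from RefSeq (GRCm38.p6), whose start-site windows matched 8 of the 9 members by symbol, Gnai2 not among them. Capitals mark every match on either strand to TGACG, the core of the cAMP response element, and to GATAAG, which zinc-finger factors of the GATA family bind.
Rgs5 (chr1:169655251-169655500, plus strand): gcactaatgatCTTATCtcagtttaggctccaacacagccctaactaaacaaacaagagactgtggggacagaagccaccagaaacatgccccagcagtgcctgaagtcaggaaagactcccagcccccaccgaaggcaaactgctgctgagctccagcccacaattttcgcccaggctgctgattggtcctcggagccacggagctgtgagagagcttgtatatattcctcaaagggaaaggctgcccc
Rgs4 (chr1:169747643-169747892, minus strand): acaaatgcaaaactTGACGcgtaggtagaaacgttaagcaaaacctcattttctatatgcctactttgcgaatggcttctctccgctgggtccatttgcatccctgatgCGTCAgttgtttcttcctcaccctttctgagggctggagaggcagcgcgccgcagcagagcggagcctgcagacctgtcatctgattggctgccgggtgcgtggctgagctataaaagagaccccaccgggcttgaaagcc
The Rgs4 stretch held 2 matches to TGACG, at 236 bases before the start site on the strand of the gene and at 141 bases before it on the other strand, and none to GATAAG. Upstream of Rgs5 there was 1 match to GATAAG, at 239 bases before the start site on the other strand, and none to TGACG. Neither stretch held CATTCC, a TEAD factor motif. TGACG occurred in 20.8% of 32851 mouse start-site windows of 300 bases, GATAAG in 7.44% and CATTCC in 14.7%. The motifs do not overlap one another, and a match describes letters only.

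Each library held 64023153 to 69992502 estimated counts. FPKM is a level per exonic length of a gene and depth of library. The 8795 genes with a mean of at least 1 FPKM were tested with edgeR, which called 615 of them (6.99%) at an adjusted p under 0.05, 414 higher (4.71%) and 201 lower (2.29%) in TAC. TAC replicate 3 stood apart: its summed fibroblast markers were 204 FPKM, against 87.3 and 83.7 FPKM in the other TAC libraries and 64.2 to 78.8 FPKM in sham. Without it, 19.4% of tested genes were called. Genes of the mitochondrial chromosome took 22.6% to 29.2% of the counts in TAC and 14.8% to 19.2% in sham. The log2 fold change also moved with GC content, with a median of 0.47 in the 1758 tested genes lowest in GC and -0.18 in the 1758 highest in GC. The edgeR fit was also run with the trends over GC content and transcript length removed from each library. In that setting 5.05% of genes were called (13.1% if TAC replicate 3 was left out too). The ratios, shares, marker sums and correlations below were computed without that correction. All 12 ventricular cardiomyocyte markers were detected, and none was called by edgeR, DESeq2 or limma or at an unadjusted p under 0.05. Their sums, at 22140 to 27690 FPKM in TAC and 29600 to 33840 FPKM in sham, did not overlap. Detection of these markers does not by itself check the ventricular label. In whole tissue, fewer cells of a type and less RNA per cell cannot be told apart. The 6 atrial markers varied within both groups, at 9.33 to 86.6 FPKM in TAC and 21.1 to 153 FPKM in sham.

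Levels between genes are compared in FPKM, and groups are compared in CPM (counts scaled to library size by TMM, edgeR's correction for differing library make-up). In FPKM the most abundant members were Gnai2 (84.9 to 101 FPKM over the 6 libraries) and Gnas (81.9 to 105 FPKM), whose ranges overlapped. Gna11 followed at 23.3 to 35.6 FPKM, Rgs5 at 7.41 to 19.0 FPKM and Rgs3 at 4.42 to 5.66 FPKM, each apart from its neighbours in the order. Gnao1 (1.98 to 3.93 FPKM) overlapped with Rgs4 (1.80 to 2.73 FPKM). Rgs2 (0.852 to 1.80 FPKM) overlapped with Gnaq, the lowest member at 0.591 to 1.28 FPKM. Between genes, CPM over FPKM followed the exonic bases of all annotated transcripts, 11186 for Gnas and 3779 for Gnai2. Mean CPM over all libraries was 1076 for Gnas and 369.5 for Gnai2, so their closeness in FPKM depends on that length.

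**Figure D1:**
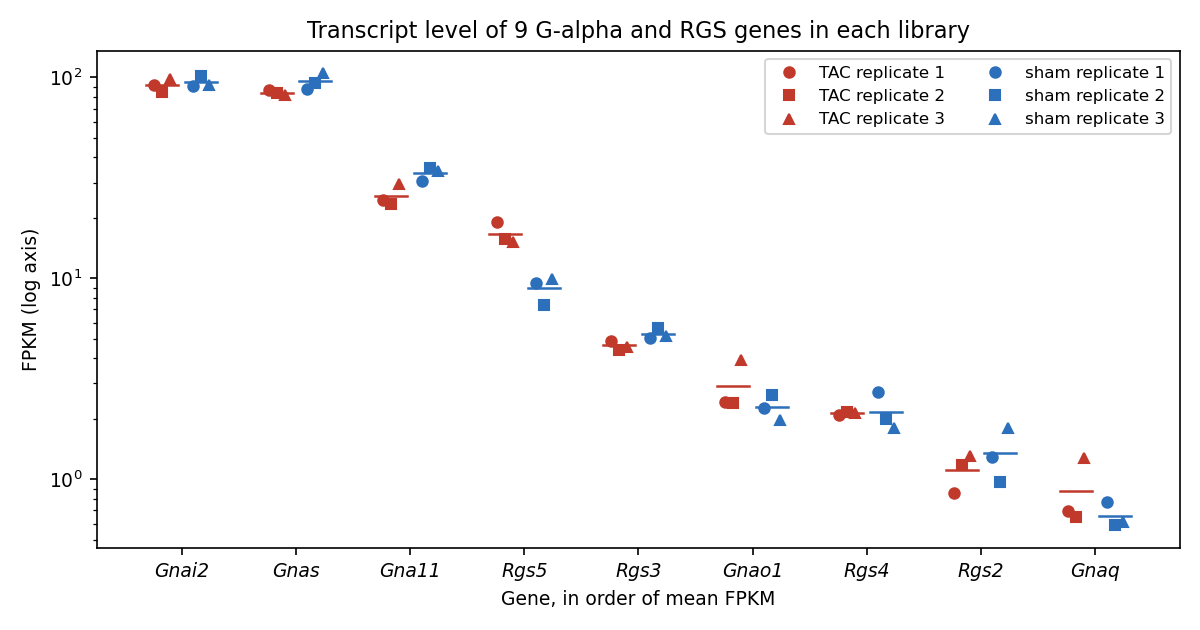
Level of each member in each library, in FPKM on a log axis, with TAC libraries in red to the left of sham libraries in blue; marker shape gives the replicate number and the line the mean of 3. The 3 TAC values of Rgs5, at 15.2 to 19.0 FPKM, all lie above the sham values, at 7.41 to 9.94 FPKM.

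Of the 8 members that passed the filter on low values, 1, Rgs5, was called (12.5%, against 6.99% of all tested genes, 4.71% higher and 2.29% lower), and the remaining 7 did not pass. The median log2 fold change of the 8 was 0.03, against -0.01 over all tested genes. In CPM the groups did not overlap for 3 members, Gnao1 and Rgs5 higher and Gna11 lower in TAC, where 34.8% of all tested genes showed such a gap, 17.7% higher and 17.1% lower. In FPKM they did not overlap for 4 members, Rgs5 higher and Gna11, Gnas and Rgs3 lower in TAC, against 36.9% of tested genes, 25.4% lower and 11.6% higher.

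Among the Gq/11 subunits, Gnaq (chr19:16132831-16387463, plus strand) was the rarer transcript. It had 4.97, 4.67 and 8.02 CPM in TAC libraries, against 4.90, 3.56 and 3.85 CPM in sham libraries. TAC replicate 3 was the highest of the 6 and the groups overlapped. With a mean of 0.767 FPKM the gene fell under the filter. In a fit without that filter its log2 fold change was 0.41 ± 0.25 (SE; edgeR adjusted p = 0.408). With GC and length trends also removed it was 0.205 (edgeR adjusted p = 0.569). The log2 ratio of mean CPM was 0.52, and 0.23 without TAC replicate 3.

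Gna11 (chr10:81528724-81545190, minus strand), the close relative of Gnaq, had 117, 111 and 123 CPM in TAC libraries, against 128, 142 and 142 CPM in sham libraries. Each TAC library lay below each sham library. The means were 117 ± 6.16 CPM in TAC and 137 ± 7.93 CPM in sham (SD, n = 3 each), a log2 fold change of -0.23 ± 0.12 (SE; edgeR adjusted p = 0.256), which did not pass. With GC and length trends removed it was -0.02. The ratio of Gna11 to Gnaq in FPKM was 31.5 ± 7.22 in TAC and 51.9 ± 10.9 in sham (SD, n = 3 each). All 3 TAC ratios, at 23.2 to 35.9, lay below the sham ratios, at 39.6 to 60.3 (exact permutation test, two-sided p = 0.1, the smallest that 3 against 3 libraries can give). The FPKM of Gna11 alone already did not overlap, so this gap is no separate support. Its divisor, Gnaq, was under the filter on low values and highest in TAC replicate 3.

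Gnas (chr2:174284320-174346744, plus strand) encodes the stimulatory subunit that couples beta-adrenergic receptors to adenylyl cyclase. It had 1138, 1107 and 944 CPM in TAC libraries, against 1021, 1040 and 1204 CPM in sham libraries. The groups overlapped, with TAC replicate 3 the lowest and sham replicate 3 the highest library. The log2 fold change was -0.03 ± 0.15 (SE; edgeR adjusted p = 0.91). Exons of Gnas overlap transcripts of the other strand over 22.0% of their bases, among them the antisense gene Nespas, and the use of strand in counting was not given in the sources used here.

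Of the Gi/o subunits, Gnai2 (chr9:107614125-107635367, minus strand), the most abundant inhibitory subunit transcript in these ventricles, had 399, 371 and 374 CPM in TAC libraries, against 351, 372 and 350 CPM in sham libraries. TAC replicate 2 and sham replicate 2 were nearly equal, so the groups overlapped. Its log2 fold change was 0.10 ± 0.12 (SE; edgeR adjusted p = 0.665), and 0.28 with GC and length trends removed (adjusted p = 0.145).

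Gnao1 (chr8:93809966-93969210, plus strand), the alpha subunit called Go, best known from neurons and also present in heart, had 31.2, 30.6 and 44.0 CPM in TAC libraries, against 25.5, 28.3 and 22.1 CPM in sham libraries. All 3 TAC libraries lay above all 3 sham libraries, with TAC replicate 3 the highest. The log2 fold change was 0.48 ± 0.19 (SE; edgeR adjusted p = 0.136) and did not pass. With GC and length trends removed it was 0.67 and passed (adjusted p = 0.0356; 5.05% of tested genes passed there, 2.71% in the higher direction). On that scale the groups did not overlap for Gnao1, nor for Gnaq and Gnai2, higher in TAC, and Rgs2, lower in TAC. The share of all tested genes with such a gap on that scale was not computed. In CPM without that correction it was 34.8%, so these gaps are not read as a result. With the trends removed, Gnai2 (edgeR adjusted p = 0.145) and Rgs2 (0.219) did not pass, and Gnaq was under the filter. For Gnao1, the other settings were as follows. Without TAC replicate 3 it was 0.29 (adjusted p = 0.191), and 0.57 with the trends also removed (adjusted p = 0.0255). It passed in 2 of 19 alternative settings, with adjusted p between 0.0255 and 0.379. Of the neuron and Schwann cell markers, 9 of 10 were in the table and 3 were tested, of which Uchl1 was called higher (in 8 of 19 alternative settings), Dbh lower (in 17 of 19) and Tubb3 not. The 9 summed to 16.4 to 25.7 FPKM in TAC and 14.1 to 16.6 FPKM in sham, with TAC replicate 3 the highest, and their part in the Gnao1 values was not tested. Exons of Gnao1 overlap an antisense gene over 2.57% of their bases.

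**Figure D2:**
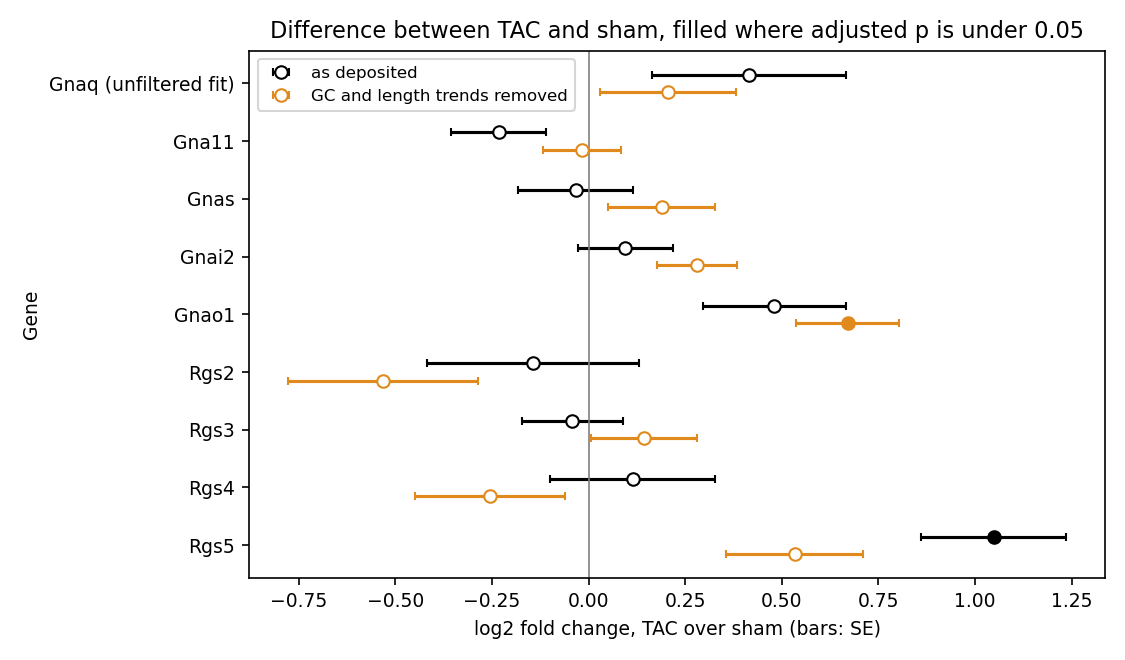
Log2 fold change of each member, TAC over sham, with bars for the SE, as deposited (black) and with trends over GC content and transcript length removed (orange); filled points have an adjusted p under 0.05 in edgeR. Rgs5 is filled at 1.05 as deposited and open at 0.53 with the trends removed, and Gnao1 is open at 0.48 and filled at 0.67; Gnaq comes from fits without the filter on low values.

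The RGS members other than Rgs5 did not pass. Rgs2 (chr1:143999338-144004161, minus strand), which acts mainly on Gq, had 3.59, 4.98 and 4.83 CPM in TAC libraries, against 4.77, 3.44 and 6.61 CPM in sham libraries. The sham libraries spread more widely than the TAC libraries and enclosed all 3 of them. Its log2 fold change was -0.14 ± 0.28 (SE; edgeR adjusted p = 0.781), and -0.53 with GC and length trends removed (adjusted p = 0.219).

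Rgs3 (chr4:62559847-62703018, plus strand), which acts on Gq/11 and Gi/o, had 61.4, 55.3 and 50.2 CPM in TAC libraries, against 55.7, 59.4 and 56.6 CPM in sham libraries. The TAC libraries lay on both sides of the sham libraries. The log2 fold change was -0.04 ± 0.13 (SE; edgeR adjusted p = 0.869). In FPKM its TAC values, at 4.42 to 4.90, all lay below its sham values, at 5.06 to 5.66, so the gap depended on the scale.

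Rgs4 (chr1:169741477-169747642, minus strand), also an RGS protein for Gq/11 and Gi/o, had 7.46, 7.75 and 6.71 CPM in TAC libraries, against 8.61, 6.0 and 5.65 CPM in sham libraries. Sham replicate 1 was the highest of the 6, and the groups overlapped. The log2 fold change was 0.11 ± 0.21 (SE; edgeR adjusted p = 0.776), and -0.25 with GC and length trends removed.

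Rgs5, known as a transcript of pericytes and vascular smooth muscle whose protein acts on Gq/11 and Gi/o, was the member that rose. It had 99.9, 82.5 and 69.9 CPM in TAC libraries, against 43.7, 32.7 and 45.6 CPM in sham libraries. The lowest TAC library was above the highest sham library, and TAC replicate 3 was the nearest to sham. The means were 84.1 ± 15.1 CPM in TAC and 40.7 ± 6.98 CPM in sham (SD, n = 3 each), a 2.07-fold difference, and the log2 fold change was 1.05 ± 0.19 (SE; edgeR adjusted p = 0.026). Within each library, the ratio of Rgs5 to its neighbour Rgs4 in FPKM was 9.14, 7.25 and 7.11 in TAC, against 3.46, 3.71 and 5.51 in sham (exact permutation test, two-sided p = 0.1, the smallest possible). The FPKM of Rgs5 alone already did not overlap, so this gap is no separate support.

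The Rgs5 call was lost with GC and length trends removed and without some of the libraries. The longest listed transcript of Rgs5 has a GC content of 41.1%, and 3.97% of tested genes have a lower one. With GC and length trends removed the log2 fold change was 0.53 (edgeR adjusted p = 0.117). On that scale Rgs5 stood at 6.40, 6.24 and 5.72 log2 CPM in TAC libraries, against 5.56, 5.54 and 5.75 log2 CPM in sham libraries, so TAC replicate 3 lay just under sham replicate 3. With TAC replicate 3 left out, Rgs5 stood at 1.17 (adjusted p = 0.00681) as deposited and at 0.71 (adjusted p = 0.0101) with the trends removed. With the mitochondrial chromosome left out before scaling, the log2 fold change was 1.05 (adjusted p = 0.0259). The call was lost without TAC replicate 1 (0.91, adjusted p = 0.087), TAC replicate 2 (1.06, adjusted p = 0.0561), sham replicate 2 (0.91, adjusted p = 0.118) or sham replicate 3 (1.14, adjusted p = 0.0698). Over 19 alternative settings it passed in 12, with a log2 fold change between 0.44 and 1.17 and an adjusted p between 2.71e-05 and 0.288.

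**Figure D3:**
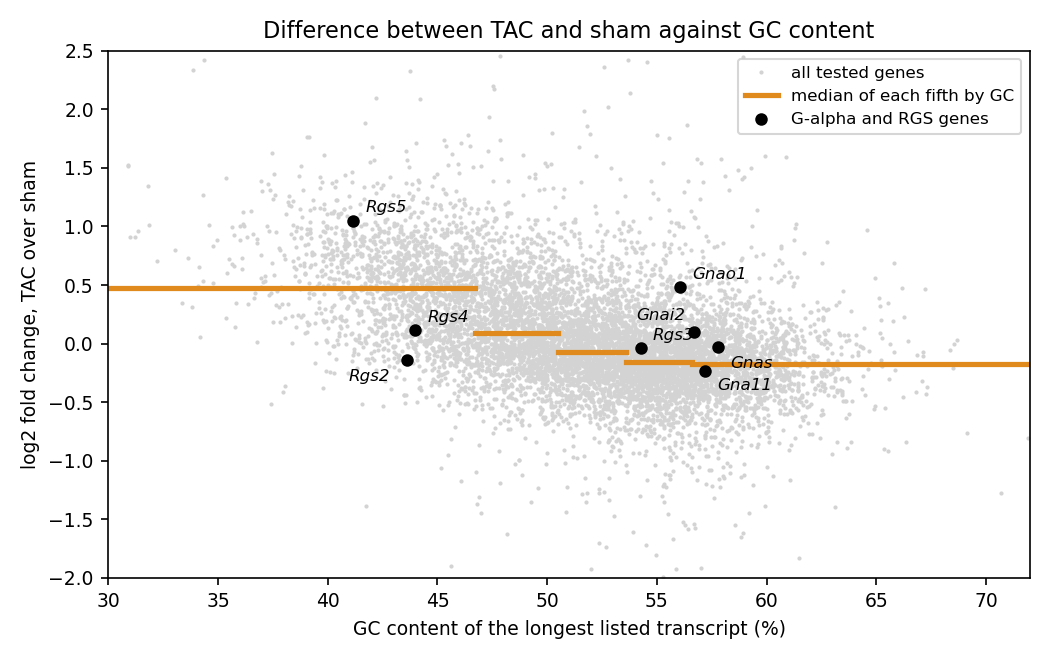
Log2 fold change, TAC over sham, against the GC content of the longest listed transcript in percent; grey points are tested genes, of which 28 lie outside the axes, orange lines are medians of 5 equal bins by GC content, and black points are the 8 tested members. Rgs5, at 41.1% GC and 1.05, lies above the median of its bin, 0.47, which Rgs2 and Rgs4 of the same bin do not reach.

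Because Rgs5 marks mural cells of vessels, the markers of those cells were set beside it. None of 10 pericyte markers was called by edgeR (2 had an unadjusted p under 0.05, and DESeq2 called 1 and limma 0), and their median log2 fold change was -0.09. Their summed level was 121, 123 and 118 FPKM in TAC libraries, against 147, 155 and 135 FPKM in sham libraries. In FPKM the groups did not overlap, as for 36.9% of all tested genes (11.6% higher and 25.4% lower in TAC). In CPM, the unit in which groups are compared here, the sums overlapped, at 434.5 to 477.5 CPM in TAC and 455.1 to 511.2 CPM in sham. Of the pericyte markers, Ndufa4l2 (-0.08 ± 0.19) and Vtn (-0.33 ± 0.25) were the most abundant. Of 9 smooth muscle markers 7 were tested and 1, Cnn1, which encodes calponin, was higher in TAC (1.68 ± 0.28, SE; edgeR adjusted p = 0.0243), and the median of the 7 was 0.54. Of those not called, Myh11, smooth muscle myosin heavy chain, had a log2 fold change of 0.54 ± 0.22 (edgeR adjusted p = 0.158), Tagln of 0.56 ± 0.25 and Actg2 of 0.65 ± 0.42, in the direction of Rgs5. Acta2 (0.09 ± 0.27), Myl9 (-0.16 ± 0.24) and Smtn (-0.36 ± 0.18) were lower than these. The call for Cnn1 was lost without TAC replicate 1 (adjusted p = 0.0742), TAC replicate 2 (0.0529), sham replicate 2 (0.115) or sham replicate 3 (0.0698). The smooth muscle markers summed to 164, 162 and 106 FPKM in TAC libraries, against 156, 190.0 and 138 FPKM in sham libraries, with Acta2 the most abundant. In CPM they summed to 283.9 to 486.4 in TAC and 366.6 to 466.6 in sham. The part of these markers in the Rgs5 difference was not tested. Rgs5 is lower in GC content (41.1%) than all of these markers, which run from 46.2% for Abcc9 to 60.7% for Ndufa4l2. These comparisons were made without the GC and length correction, and with it Rgs5 stood at 0.53 (edgeR adjusted p = 0.117). The part of GC content in them was not tested either. No gene of either list was at 0 in every library. In FPKM, the ratio of Rgs5 to the summed pericyte markers was 0.138 ± 0.0171 in TAC and 0.0619 ± 0.0132 in sham, and its ratio to the summed smooth muscle markers was 0.119 ± 0.0237 in TAC and 0.0572 ± 0.0168 in sham (SD, n = 3 each). For both ratios all 3 TAC libraries lay above all 3 sham libraries (exact permutation tests, two-sided p = 0.1 each). Rgs5 was followed here because it was called, and its FPKM alone did not overlap. These gaps are therefore no separate support for a difference.

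**Figure D4:**
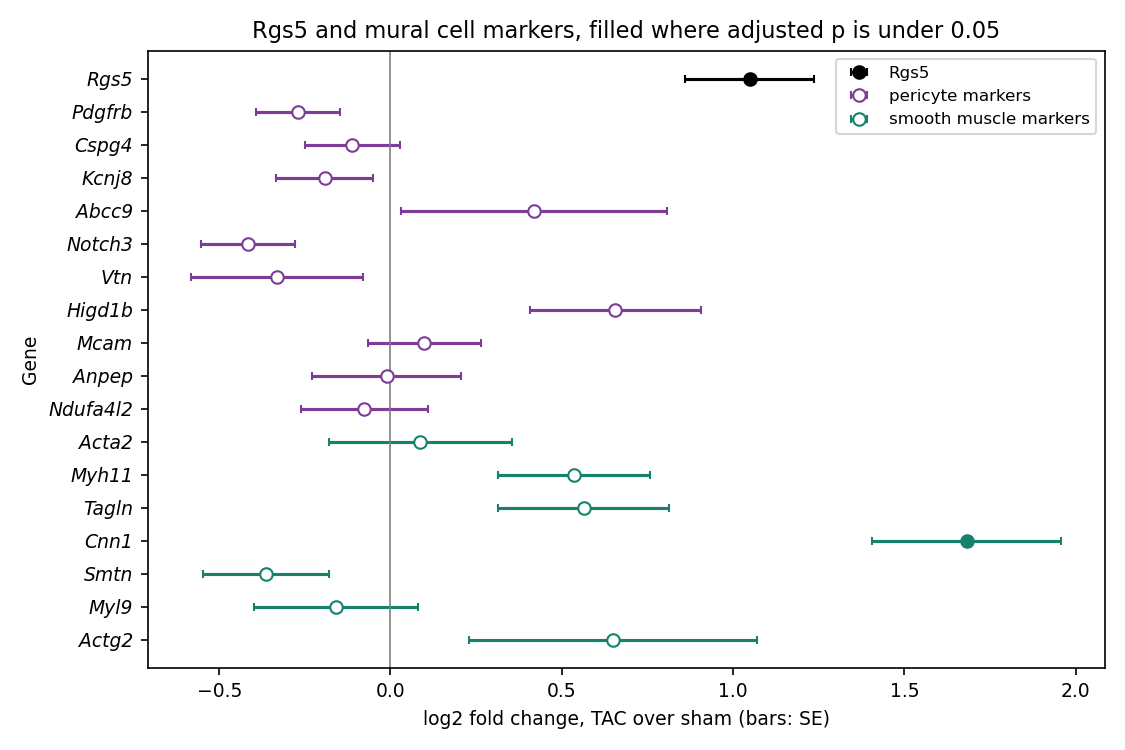
Log2 fold change, TAC over sham, of Rgs5 (black), 10 pericyte markers (purple) and the 7 tested smooth muscle markers (green), with bars for the SE; filled points have an adjusted p under 0.05 in edgeR. Rgs5 at 1.05 lies to the right of all 10 pericyte markers, which run from -0.42 for Notch3 to 0.66 for Higd1b, and Cnn1 at 1.68 is the filled smooth muscle marker. All values are without the GC and length correction, with which Rgs5 was 0.53 and not called.

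Further lists covered other cell types. Of 11 endothelial markers 1, Tek, was called higher (a call kept in 7 of 19 alternative settings), and the list summed to 178 to 255 FPKM in TAC and 219.6 to 238 FPKM in sham. Of 8 fibroblast markers 4 were called higher, and over 19 alternative settings the call held in 15 for Postn, 8 for Dcn, 7 for Lum and 9 for Pi16. No macrophage marker was called by edgeR of 8 tested (1 at an unadjusted p under 0.05, 1 by DESeq2, 0 by limma), with sums of 328 to 446 FPKM in TAC and 337 to 399 FPKM in sham. Of the 5 tested atrial markers, edgeR, DESeq2 and limma each called 0, and 0 had an unadjusted p under 0.05. The part of these cell types in the values of the G-alpha and RGS genes was not tested.

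Shares within each family were taken from FPKM, and their sizes depend on the exonic length by which each gene was divided. The table held 16 G-alpha genes, which summed to 256 ± 24.4 FPKM in TAC and 285 ± 16.8 FPKM in sham (SD, n = 3 each). Gnai2 made up 35.8 ± 1.09% of the sum in TAC and 33.3 ± 1.62% in sham, Gnas 33.1 ± 3.65% in TAC and 33.6 ± 2.12% in sham, and Gna11 10.1 ± 0.331% in TAC and 11.8 ± 0.232% in sham. The share of Gna11 lay lower in each TAC library than in each sham library, and that of Gnai2 higher. Gnao1 took 1.13 ± 0.226% in TAC and 0.805 ± 0.113% in sham, again without overlap. A share also moves with the sum of the family. The FPKM of Gnai2 itself overlapped, with means of 91.4 in TAC and 94.7 in sham, so its higher share is not a higher level. In all, 6 of the 16 shares did not overlap between groups, those of Gna13, Gnai3 and Gnal being also higher in TAC (named after their values were seen). Over all tested genes, the FPKM of the groups did not overlap for 36.9%. That figure is for FPKM of tested genes and not for shares within a family. Gnai3 and Gnal were not tested, and Gnal had 33 counts at most. Gna12 had the largest share outside the members, at 18.4 ± 3.85% in TAC and 19.4 ± 0.706% in sham. No test was run on shares.

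The 16 RGS genes in the table summed to 34.1 ± 2.85 FPKM in TAC and 28.7 ± 0.445 FPKM in sham (SD, n = 3 each), higher in each TAC library. Rgs5 took 51.7%, 50.4% and 44.0% of that sum in TAC libraries, against 32.4%, 26.3% and 34.6% in sham libraries. Rgs3 took 13.6 ± 0.515% in TAC and 18.5 ± 1.40% in sham. The shares of 5 genes lay lower in every TAC library, those of Rgs3, Rgs6, Rgs12, Rgs14 and Rgs19 (named after their values were seen). With Rgs5, the shares of 6 of 16 genes did not overlap. The 36.9% of all tested genes is again a figure for FPKM and not for shares, and Rgs14 was not tested. A larger share of Rgs5 leaves less for the rest, so the shares were also taken over the other 15 genes. There Rgs3 took 26.6 ± 2.58% in TAC and 26.9 ± 1.0% in sham and the groups overlapped, while Rgs6 and Rgs14 stayed lower and Rgs10 was higher in TAC. The other 15 genes together summed to 17.5 ± 1.95 FPKM in TAC and 19.7 ± 1.01 FPKM in sham, with overlap.

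**Figure D5:**
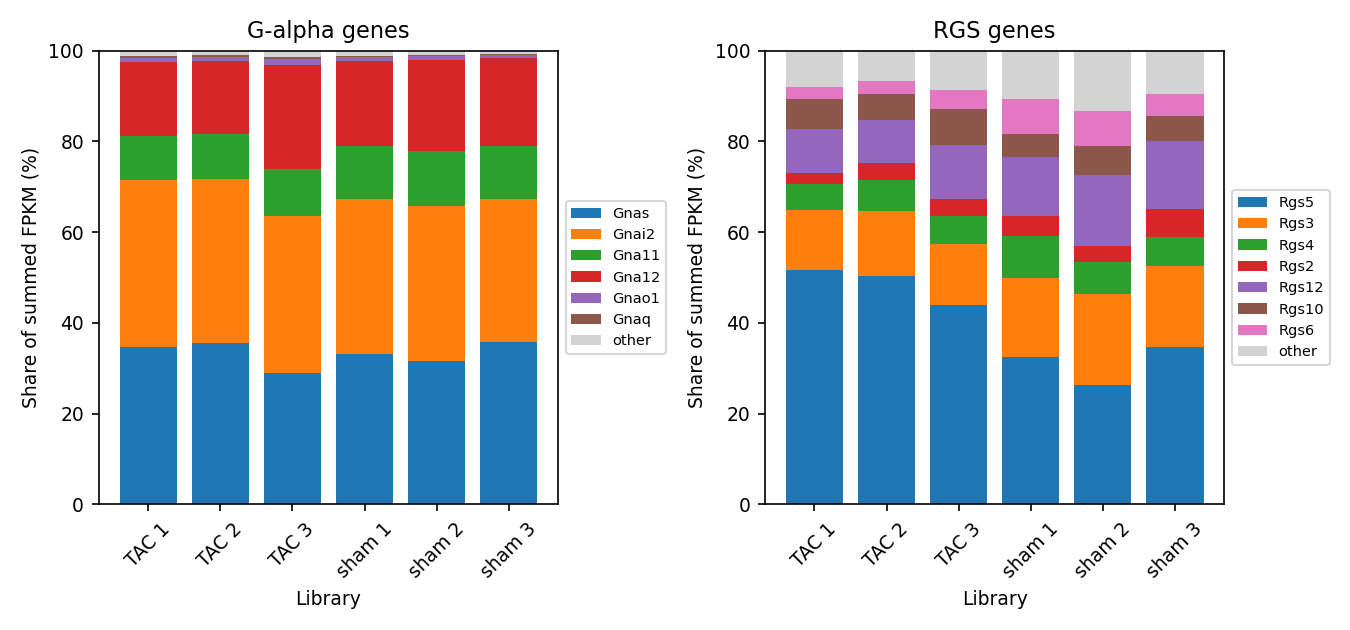
Share of the summed FPKM of the G-alpha genes (left) and of the RGS genes (right) in each library, in percent, TAC libraries first; each colour is a gene. Rgs5 fills 44.0% to 51.7% of the RGS bars in TAC and 26.3% to 34.6% in sham, and Gnai2, Gnas, Gna12 and Gna11 are the large parts of the G-alpha bars in every library.

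The partners of these proteins were followed with 11 lists of genes, from the other subunits through receptors to effectors. Of 135 genes found by symbol, 59 were tested and 7 were called (11.9%, against 6.99% of all tested genes), 2 higher and 5 lower in TAC, with a median log2 fold change of -0.02. Each of the 7 was also called with GC and length trends removed. Of the other alpha subunits 2 of 11 were tested and edgeR called 0 (1 at an unadjusted p under 0.05, 0 by DESeq2 or limma), Gna12 (-0.09 ± 0.18) and Gna13 (0.49 ± 0.21). Of the beta and gamma subunits 9 of 16 were tested and edgeR called 0 (2 at an unadjusted p under 0.05, 1 by DESeq2, 0 by limma), with a median of 0.47, and the most abundant were Gnb2 (-0.20 ± 0.18) and Gng11 (0.53 ± 0.25). Of the other RGS genes 4 of 12 were tested and edgeR called 0 (2 at an unadjusted p under 0.05, 2 by DESeq2, 0 by limma), with Rgs12 (-0.08 ± 0.14) and Rgs10 (0.63 ± 0.22) the most abundant.

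Gpsm1, which encodes a protein that binds the GDP form of Gi/o alpha subunits, was the called gene among 5 tested regulators. It fell to 160, 159 and 166 CPM in TAC libraries, against 258, 284 and 263 CPM in sham libraries, a log2 fold change of -0.73 ± 0.12 (SE; edgeR adjusted p = 0.0243). Each TAC library lay far below each sham library.

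Receptors were changed in both directions. Of 8 tested receptors that couple to Gq/11, Adra1b, the alpha-1B adrenergic receptor, fell to 23.5, 19.1 and 20.1 CPM in TAC libraries, against 63.8, 89.0 and 54.0 CPM in sham libraries (-1.72 ± 0.20, SE; edgeR adjusted p = 0.00993). F2r, the thrombin receptor PAR1, rose to 6.60, 8.63 and 13.0 CPM in TAC libraries, against 4.06, 2.20 and 2.51 CPM in sham libraries (1.69 ± 0.33; edgeR adjusted p = 0.0301). The other 6 of that list did not pass. Of 4 tested Gs-coupled receptors, Crhr2, a receptor for urocortins, fell to 25.1, 21.7 and 23.1 CPM in TAC libraries, against 36.9, 53.3 and 39.6 CPM in sham libraries (-0.89 ± 0.17; edgeR adjusted p = 0.0299). Of 6 tested receptors for Gi/o, Adora1, the adenosine A1 receptor, fell to 10.9, 11.8 and 11.5 CPM in TAC libraries, against 23.8, 21.5 and 20.3 CPM in sham libraries (-0.94 ± 0.14; edgeR adjusted p = 0.0229). Exons of Adora1 overlap Mybph on the other strand over 20.1% of their bases. For all 4 of these receptors, named because they were called, the CPM of the groups did not overlap, as for 34.8% of all tested genes.

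Downstream, none of 5 tested Gq/11 effectors was called by edgeR (1 at an unadjusted p under 0.05, 1 by DESeq2, 0 by limma), where Arhgef25 had a log2 fold change of 0.20 ± 0.15 and Plcb3, a phospholipase C-beta, of -0.11 ± 0.15. In the cAMP arm 1 of 9 tested genes was called. Prkaca, which encodes a catalytic subunit of protein kinase A, fell to 192, 185 and 209 CPM in TAC libraries, against 300.1, 352 and 321 CPM in sham libraries (-0.73 ± 0.13, SE; edgeR adjusted p = 0.0262). Of the potassium channel subunits opened by beta-gamma, Kcnj5 (-0.65 ± 0.44) and Kcnj3 (0.42 ± 0.20) were tested and called by none of the 3 tools, nor at an unadjusted p under 0.05. Among 5 tested receptor kinases and arrestins, Grk5, a kinase that phosphorylates activated receptors, rose to 25.0, 28.5 and 37.0 CPM in TAC libraries, against 18.5, 13.9 and 15.5 CPM in sham libraries (0.92 ± 0.19; edgeR adjusted p = 0.0352).

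The call for Adra1b held in all 19 alternative settings, with an adjusted p of at most 0.0425. The calls of the other 6 partner genes ended without TAC replicate 1 (edgeR adjusted p = 0.0595 to 0.103), without sham replicate 2 (0.108 to 0.15) and without sham replicate 3 (0.0698 to 0.105). Without TAC replicate 2, Adora1 still passed and the other 5 did not, at 0.0562 to 0.0682. The call for Grk5 passed in 10 of 19 alternative settings, and those of the other 5 in 13 or 14. Grk5 was also not called without the filter on low values (edgeR adjusted p = 0.0606) or by limma at pseudocounts of 1 (adjusted p = 0.0753) and 0.1 (0.0721), where the other 5 passed.

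By Pearson's r of log2 CPM over the 6 libraries, the tested genes whose pattern was most like that of Rgs5 were mt-Nd5 (r = 0.997), a mitochondrially encoded subunit of respiratory complex I, Rpl5 (r = 0.996), a ribosomal protein, and Eif2s1 (r = 0.995), a translation initiation factor subunit. In all, 488 tested genes had an r above 0.9. The 6 libraries fall into the 2 groups compared, so that any gene with a similar gap between them has a high r. The GC content of the 3 genes was 37.1%, 42.7% and 40.8%, low like that of Rgs5, and this is a description with no test.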

How the data were processed

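Poly(A)-selected RNA of the left ventricle was sequenced in 3 TAC and 3 sham libraries. The submitters' processing notes name the build GRCm38 and StringTie 1.3.4d, HISAT2 2.0.4 and cutadapt 1.9. For each of 24602 genes the authors deposited an FPKM and an estimated count per library, per the file headers. The way counts were estimated was not given in the sources used here. Counts had been assumed in the plan, and estimated counts, already whole numbers, were used in their place. Samples were grouped by their labels. The members and gene lists were chosen with earlier results of these data known.

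Genes with a mean of at least 1 FPKM were kept (8795), scaled by TMM, and compared with edgeR 4.0.16 (glmQLFit and glmQLFTest, in R 4.3.3). Benjamini-Hochberg adjustment ran over all of them, with a threshold of 0.05. The SE was approximated as the absolute log2 fold change over the square root of F. CPM are estimated counts over TMM-scaled library size. Trends over GC content and length (GENCODE M21, in which 24547 identifiers were found, 21895 with the same coordinates) were smoothed by lowess (span 0.3, 3 rounds) and given to edgeR as offsets. Alternatives were DESeq2 1.42.0, limma 3.58.1 on log2(FPKM + 1) and log2(FPKM + 0.1), other scalings and filters, the mitochondrial chromosome left out, a replicate block, and each library left out. On simulated counts of 8795 genes, edgeR recovered 47% of 100 changes of 2-fold and 97% of 100 changes of 4-fold. Of its 151 calls there, 7 were of unchanged genes. A missing call alone therefore does not show that a gene differs by less than 2-fold. The 47% is a figure over 100 changes and was not worked out for single genes. Of tested uncalled members, Gnai2 had a log2 fold change of 0.10 ± 0.12 (SE), Gna11 -0.23 ± 0.12 and Rgs3 -0.04 ± 0.13. Gnas had -0.03 ± 0.15, Rgs4 0.11 ± 0.21, Rgs2 -0.14 ± 0.28 and Gnao1 0.48 ± 0.19. Whether any of them differs by 2-fold was not tested.

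All 9 members were named by rule. From each list the rule took up to 4 called genes with the lowest adjusted p. With none called, it took up to 2 with the highest mean FPKM. For each called member it took the 3 tested genes with the highest r. Named outside this rule were Notch3, Higd1b, Tubb3, the smooth muscle markers other than Cnn1, and genes marked above as named after their values were seen. No 2 replicates agreed within sampling noise. Promoter windows are from RefSeq (GRCm38.p6); protein sequences were not used here.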

Additional observations from a re-analysis of the deposited data

How the results depend on the processing

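The same direction in all 19 alternatives was kept by Rgs5, Gnao1 and Gna11 among the tested members, and by the 7 called partner genes. The number of genes called, 615, was 285 without the filter on low values, 1648 with DESeq2, 12 to 1705 with 1 library left out, and, in settings chosen after the data were seen, 373 with neither filter nor GC and length trends and 1149 with the trends removed and without TAC replicate 3. Of the 615, 285 were also among the 444 called with the trends removed alone. The called genes were 414 higher and 201 lower in TAC, against 555 and 164 with upper-quartile scaling, 174 and 338 with limma on log2(FPKM + 1), and 238 and 206 with the trends removed. The count of called members, 1, was 0 to 1 with 1 library left out, 0 with neither filter nor trends, and 2 (Rgs5 and Gnao1) with the trends removed and without TAC replicate 3. The count of called partner genes, 7, was 11 with edgeR's own filter, 13 with DESeq2, 1 to 16 with 1 library left out, and 17 with the trends removed and without TAC replicate 3. Replicate numbers did not pair the libraries: deviations of same-numbered libraries correlated at -0.17, 0.18 and -0.13, and 2 of 6 libraries correlated best with their own number. With the replicate number as a block 183 genes, 1 member (Rgs5) and 1 partner gene (Adra1b) were called, and with the block and the trends removed 128 genes, 0 members (Rgs5 at an adjusted p of 0.192) and 1 partner gene. Members that were not called changed sign as follows on the log2 scale. With upper-quartile scaling Gnas was 0.029 and Rgs3 0.02. With the trends removed Gnas was 0.189, Rgs3 0.143 and Rgs4 -0.255, and with the replicate block as well 0.19, 0.13 and -0.247. With 1 library left out Gnas lay between -0.085 and 0.045, the highest without TAC replicate 3 or sham replicate 3, Rgs3 between -0.118 and 0.026 (without TAC replicate 3), and Rgs2 between -0.348 and 0.124 (without sham replicate 3). With the trends removed and without TAC replicate 3 Gnas was 0.279, Rgs3 0.27 and Rgs4 -0.146. Gnai2 was -0.008 without the filter, -0.004 with edgeR's own filter, and -0.052 and -0.053 with limma at pseudocounts of 1 and 0.1, where Rgs4 was -0.012 and -0.01. With neither filter nor trends Gnas was 0.09, Rgs3 0.043 and Rgs4 -0.354. The median of all tested genes moved by -0.10 without the filter and by -0.12 and -0.15 in the limma fits. The causes were not tested. Gnaq, at a mean of 0.767 FPKM, was below the filter on low values, and whether depth limits the comparison of the rare members was not tested.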
